A study of Bos taurus with 6 samples.

Results

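Adiponectin, leptin and the C1q/TNF-related proteins are hormones and matrix-associated factors that fat tissue secretes, and 10 genes of this group were followed here in bovine cells transfected with a miRNA. The genes were C1QTNF1, C1QTNF2, C1QTNF3, C1QTNF5, C1QTNF6 and C1QTNF7, the adiponectin gene ADIPOQ, the adiponectin receptor genes ADIPOR1 and ADIPOR2, and the leptin gene LEP. They were taken by their symbols, and all 10 have a row among the 23475 genes of the deposited table. The RNA came from cells isolated with collagenase from subcutaneous fat of premature calves and collected 48 h after transfection. In one group, 3 libraries, the cells received the bta-miR-484 agomir, a modified double-stranded RNA that supplies the miRNA. In the other group, 3 libraries, they received agomir NC, the negative control of the same kind. All cells grew in high-glucose DMEM with fetal bovine serum, and whether the sequenced cells had been placed in differentiation medium is not stated. The study took fat from 3 calves, but it is not stated whether the 3 libraries of a group came from different calves. The p-values therefore measure the spread between these libraries, which may be technical.

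Adiponectin and the C1q/TNF-related proteins share a collagen-like stretch and a globular C1q domain, and they assemble into trimers and larger multimers before secretion. Adiponectin acts through ADIPOR1 and ADIPOR2, membrane proteins with several transmembrane helices that pass the signal on through the adaptor APPL1 and AMP-activated kinase. In fat tissue ADIPOQ and LEP are switched on when preadipocytes mature into lipid-filled adipocytes, whereas several C1q/TNF genes are also expressed in stromal cells. The expression values are FPKM, fragments scaled to transcript length and to the mapped fragments of the library, which can be compared between genes because they are given per length. Library sums of FPKM lay between 365977 and 379361. FPKM holds no read numbers, and library depth is therefore unknown.

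The labels call the cells adipocytes, and the markers of the mature state were mixed. Of 16 mature adipocyte markers, 10 had means of at least 0.5 FPKM, among them LPL at 3.73, PNPLA2 at 3.72, PPARG at 3.55, GPD1 at 2.95, FABP4 at 2.39 and PLIN1 at 1.23 FPKM. The other 6, ADIPOQ, LEP, PLIN4, CIDEC, DGAT2 and CFD, had means below 0.5 FPKM, and the list's most abundant gene was SCD at 92.8 FPKM. PDGFRA, a receptor that marks preadipocytes and other stromal cells, had means of 165 ± 1.90 FPKM with the agomir and 167 ± 5.09 FPKM with agomir NC (SD, n = 3 each), and COL3A1, a fibrillar collagen gene, averaged 7623 FPKM. Among 13 preadipocyte and fibroblast markers, DLK1 alone was listed at 0. Among markers of other cells, those of smooth muscle and pericytes were not low, with means of 281 FPKM for TAGLN and 207 FPKM for ACTA2, which encode an actin-binding protein and an actin of contractile cells, both above PDGFRA, while MYH11 and RGS5 were below 0.5 FPKM. CNN1, another gene of the smooth muscle and pericyte list, averaged 15.0 FPKM. The summed level of that list was 499.9, 503 and 489.9 FPKM with the agomir and 531, 478 and 517 FPKM with agomir NC. The other classes were mixed. PECAM1, CDH5 and KDR (endothelium), PTPRC and CSF1R (leukocytes), MYOD1 and MYOG (muscle) and EPCAM (epithelium) were all below a mean of 0.5 FPKM. CD14, at 6.27 FPKM, and VWF, at 3.39 FPKM, were the most abundant genes of the leukocyte and endothelial lists. CD68, at 0.906 FPKM, and TEK, at 0.585 FPKM, of the same lists were also above 0.5 FPKM. In the Schwann cell list the most abundant gene was S100B, at 4.22 FPKM. CD14 and S100B were thus above LPL.

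Within these cells the 10 genes spanned levels from well expressed to almost nothing. C1QTNF1, which encodes a secreted C1q/TNF protein, was the highest, with a mean of 43.4 FPKM over the 6 libraries, above 94.3% of all genes in the table. ADIPOR1 followed at 26.6 FPKM, ADIPOR2 at 8.42 FPKM, C1QTNF5 at 7.90 FPKM and C1QTNF3 at 5.27 FPKM. C1QTNF6 and C1QTNF2 were near 1 FPKM, at 1.29 and 1.07 FPKM. ADIPOQ, at 0.140 FPKM, LEP, at 0.00910 FPKM, and C1QTNF7, at 0.00856 FPKM, were the lowest of the 10. The ranges of neighbors in this order over the 6 libraries were separate except for 3 pairs, ADIPOR2 with C1QTNF5, C1QTNF6 with C1QTNF2, and LEP with C1QTNF7. C1QTNF1 made up between 72.5% and 75.5% of the summed FPKM of the 6 C1QTNF genes in every library.

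In the comparison of agomir with agomir NC, which asks what added bta-miR-484 does to these cells, C1QTNF3 and C1QTNF1 were lower with the agomir, both receptors had close means, and none of the 10 genes passed a threshold adjusted over all genes. The test took the 12422 genes whose mean reached 0.5 FPKM, and 7 of the 10 were among them, each with a mean above 0.5 FPKM in both groups. C1QTNF7, ADIPOQ and LEP were not tested. Differences are log2 fold changes of agomir against agomir NC on the log2(FPKM + 0.5) scale, where 0.5 is a pseudocount that understates the change of low genes, and the test was limma's moderated test. At an unadjusted p under 0.05, 2 of the 7 were lower and 0 were higher with the agomir. Of all genes tested, 10.9% passed that threshold, 4.31% as lower and 6.63% as higher genes. At an adjusted p under 0.05 the count was 0 of 7, against 0.00805% of all genes. The median log2 fold change of the 7 was -0.13, beside 0.013 over all genes tested.

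C1QTNF3 encodes a secreted C1q/TNF protein made in cartilage and fat. Replicates 1 to 3 of the agomir read 4.598, 4.29 and 4.53 FPKM, and those of agomir NC read 6.196, 5.81 and 6.17 FPKM. All agomir values were below all agomir NC values, with a gap wider than the range of either group. Mean levels of 4.47 ± 0.163 and 6.06 ± 0.213 FPKM (SD, n = 3 each) put the agomir 26.2% lower. The log2 fold change was -0.40 with a standard error of 0.076 and a 95% interval from -0.57 to -0.23. Limma's unadjusted p was 0.000409, the 29th smallest of the 12422 genes, and its p adjusted over all genes was 0.174. The unadjusted p stayed under 0.05 in 15 of 15 alternative fits, while the adjusted p ranged from 0.150 to 0.482. By exact permutation, two-sided, p was 0.1, and no smaller value is possible with 3 libraries against 3.

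The genes next to C1QTNF3 and C1QTNF1 were read for comparison, using the gene order of the RefSeq table for assembly ARS-UCD2.0. RAI14, an actin-binding protein gene on one side of C1QTNF3, had a mean of 86.3 ± 3.08 FPKM under the agomir and of 77.5 ± 1.69 FPKM under agomir NC (SD, n = 3 each). Its groups were separate with the agomir above, and its log2 fold change was 0.15, with limma's unadjusted p at 0.00575 and its adjusted p at 0.310. AMACR, a racemase gene of fatty acid oxidation on the other side, was at 3.99 ± 0.452 and 3.60 ± 0.632 FPKM (SD, n = 3 each), with overlapping groups. Beside C1QTNF1, ENGASE, a glycosidase gene, was at 3.19 ± 0.128 and 3.45 ± 0.407 FPKM (SD, n = 3 each), and CANT1, a nucleotidase gene, at 9.90 ± 0.225 and 9.70 ± 0.427 FPKM (SD, n = 3 each). The groups of both overlapped, and the log2 fold changes were -0.096 and 0.029.

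C1QTNF1 was at 41.5, 40.1 and 41.1 FPKM under the agomir, while agomir NC gave 41.9, 47.3 and 48.7 FPKM. The groups did not overlap, but agomir NC replicate 1 lay just above the highest agomir library. Group means of 40.9 ± 0.725 and 46.0 ± 3.57 FPKM (SD, n = 3 each) had a ratio of 0.890. Its log2 fold change was -0.16 (standard error 0.059, 95% interval from -0.30 to -0.030), with limma's unadjusted p at 0.0213 and its adjusted p at 0.381. The unadjusted p rose above 0.05 without the variance trend (0.0559), without agomir replicate 2 (0.0620), without agomir NC replicate 2 (0.0649) and without agomir NC replicate 3 (0.0797), and over all alternatives the adjusted p lay between 0.248 and 0.618. Exact permutation again gave a two-sided p of 0.1. C1QTNF1 and C1QTNF3 were the 2 of the 7 tested genes with separate groups, both with the agomir below, and groups were separate in 17.2% of all genes, with the agomir below in 6.36%.

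**Figure D1:**
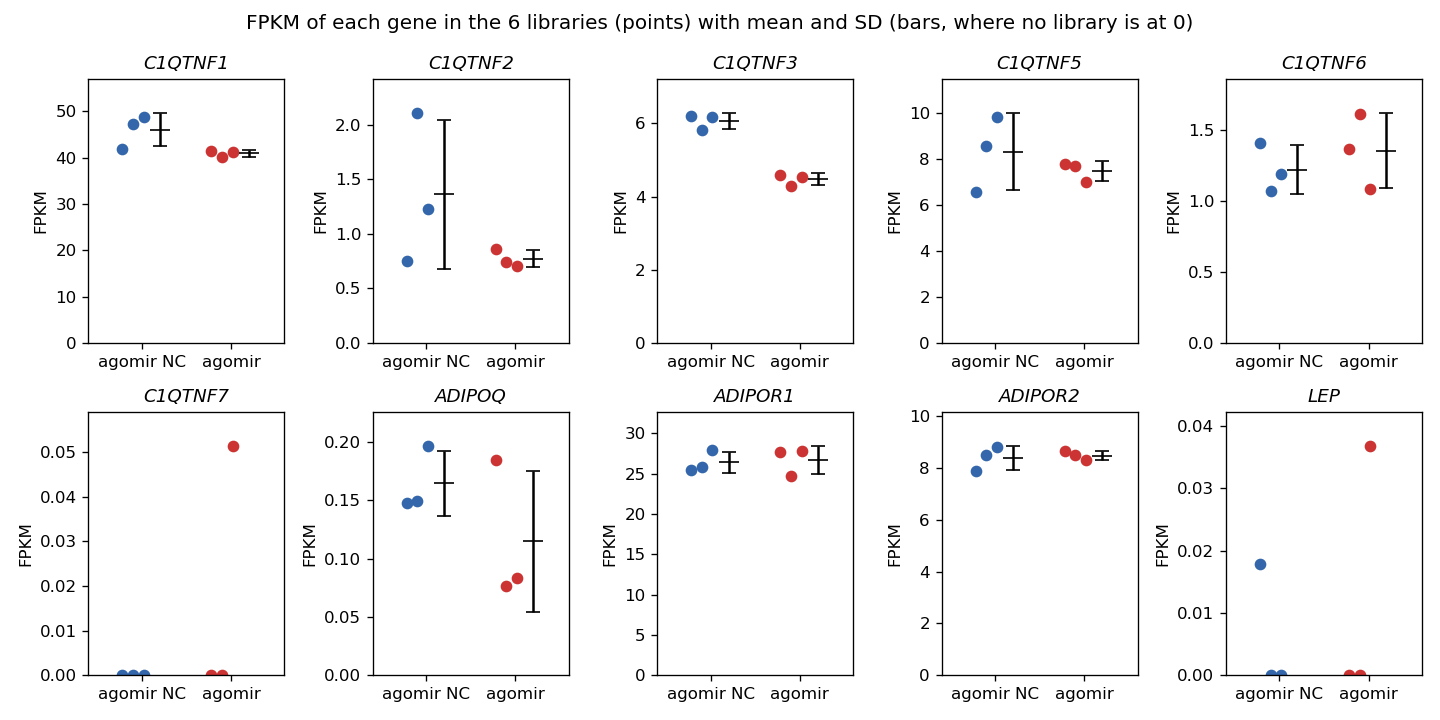
FPKM (vertical axes, linear and starting at 0, scaled per gene) of the 10 genes in the 3 agomir NC libraries (blue points) and the 3 agomir libraries (red points), replicates 1 to 3 from left to right, with the mean and SD as black bars where no library is at 0. The groups are separate for C1QTNF3 and C1QTNF1, agomir NC replicate 1 lies within the agomir range for C1QTNF2, and ADIPOQ, LEP and C1QTNF7 stay below 0.2 FPKM.

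C1QTNF2 encodes a secreted protein of the same family, and the study lists qPCR primers for it among those used to check the sequencing. The study states that qPCR of differentially expressed genes bore out the sequencing, and its text gives no value for C1QTNF2. In the deposited FPKM, C1QTNF2 was at 0.860, 0.745 and 0.709 FPKM under the agomir, while agomir NC gave 0.754, 2.11 and 1.23 FPKM. The agomir libraries were tightly grouped and the agomir NC libraries were not, with agomir NC replicate 1 inside the agomir range. The highest agomir NC library was 2.79-fold above the lowest, against 1.21-fold among the agomir libraries. The ratio of the means was 0.566 and the log2 fold change -0.49 (standard error 0.23), with a 95% interval from -1.01 to 0.034 that includes no change. Limma's unadjusted p was 0.0638 and its adjusted p 0.485, with a range of the latter from 0.269 to 0.731 over the alternatives. The value moved with single agomir NC libraries. The log2 fold change was -0.74 without replicate 1, where limma's unadjusted p was 0.00460, and -0.21 without replicate 2. The primer pair with which the study assayed the gene is given for identification, 5′ to 3′ in lower case.
C1QTNF2 forward: ctcaggaatggtgggaagaa
C1QTNF2 reverse: caccgctgacacctttgg

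The genes with a symbol whose pattern over the 6 libraries was nearest to that of C1QTNF2 were SCG5, SAA3, ZFYVE19, C22H3orf18 and ZNF502. Likeness was the root mean square difference of the log2 values after each gene was centered on its own mean, and it was 0.148 for SCG5 and 0.173 for ZNF502, where C1QTNF2 itself varied by 0.394 around its mean. SCG5, a secretory granule protein gene, was at 0.861, 1.02 and 0.927 FPKM under the agomir, while agomir NC gave 0.896, 1.94 and 1.63 FPKM. SAA3, a serum amyloid A gene, was at 4.11, 2.73 and 2.52 FPKM under the agomir, while agomir NC gave 2.66, 7.09 and 4.79 FPKM. These genes were chosen for this likeness, so the high agomir NC replicates 2 and 3 that they share with C1QTNF2 are no separate result.

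C1QTNF5, whose protein is best known from the retinal pigment epithelium, was at 7.79, 7.67 and 6.99 FPKM under the agomir, while agomir NC gave 6.55, 8.57 and 9.84 FPKM. The agomir libraries fell inside the range of the agomir NC libraries. Group means were 7.48 ± 0.432 and 8.32 ± 1.66 FPKM (SD, n = 3 each) and the log2 fold change was -0.13 (standard error 0.13, 95% interval from -0.41 to 0.15), with limma's adjusted p at 0.756. It was -0.28 without agomir NC replicate 1, with an unadjusted p of 0.0139 in limma, and -0.0043 without agomir NC replicate 3. C1QTNF5 overlaps MFRP in the RefSeq table for ARS-UCD2.0, and MFRP was listed at 0 in all 6 libraries.

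C1QTNF6 was at 1.37, 1.61 and 1.09 FPKM under the agomir, while agomir NC gave 1.41, 1.07 and 1.19 FPKM. The groups overlapped in part, with agomir replicate 2 above and agomir NC replicate 2 below the libraries of the other group, and C1QTNF6 was the C1QTNF gene among those tested whose mean was higher with the agomir. Its log2 fold change was 0.10 (standard error 0.15), with a 95% interval from -0.22 to 0.43 and limma's adjusted p at 0.839. The value was 0.0039 without agomir replicate 2 and 0.21 without agomir replicate 3. SSTR3, which overlaps C1QTNF6 in the RefSeq table for ARS-UCD2.0, was listed at 0 in all 6 libraries. C1QTNF7 was listed at 0.0514 FPKM in agomir replicate 3 and at 0 in the other 5 libraries, and no fold is given for it.

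Summed over the 6 C1QTNF genes, the level was 56.1, 54.4 and 54.5 FPKM with the agomir and 56.8, 64.8 and 67.1 FPKM with agomir NC. Most of this sum is C1QTNF1. Agomir NC replicate 1 stood nearest to the agomir libraries in the sum, and it was the lowest agomir NC library for 5 of the 7 tested members, C1QTNF1, C1QTNF2, C1QTNF5, ADIPOR1 and ADIPOR2. Over all genes tested it was the lowest of the 3 for 31.6%.

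The 2 adiponectin receptor genes were well expressed, with close means in the groups. ADIPOR1 was at 27.7, 24.7 and 27.8 FPKM under the agomir, while agomir NC gave 25.5, 25.8 and 27.9 FPKM. Its means were 26.7 ± 1.75 and 26.4 ± 1.28 FPKM (SD, n = 3 each), and the 95% interval of its log2 fold change, 0.014, ran from -0.13 to 0.15. ADIPOR2 was at 8.65, 8.47 and 8.28 FPKM under the agomir, while agomir NC gave 7.88, 8.47 and 8.79 FPKM. Its means were 8.47 ± 0.183 and 8.38 ± 0.462 FPKM (SD, n = 3 each), and its log2 fold change of 0.016 had an interval from -0.14 to 0.17. The sign of ADIPOR1 turned with median-ratio scaling (-0.0018) and that of ADIPOR2 with quantile normalization (-0.0060), so no direction is given for either. Limma's adjusted p was 0.957 for both. ADIPOR1 was between 2.91-fold and 3.35-fold above ADIPOR2 in every library, with a mean ratio of 3.16 in each group.

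The hormones that mark mature fat cells were below the level needed for the test. ADIPOQ was at 0.185, 0.0763 and 0.0831 FPKM under the agomir, while agomir NC gave 0.148, 0.149 and 0.197 FPKM. Its groups overlapped because of agomir replicate 1, mean levels were 0.115 ± 0.0607 and 0.165 ± 0.0277 FPKM (SD, n = 3 each), and exact permutation gave a two-sided p of 0.3. LEP was listed at 0.0368 FPKM in agomir replicate 3, at 0.0178 FPKM in agomir NC replicate 1 and at 0 in the other 4 libraries. With depth unknown, a change of LEP or ADIPOQ could not be assessed at these levels.

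**Figure D2:**
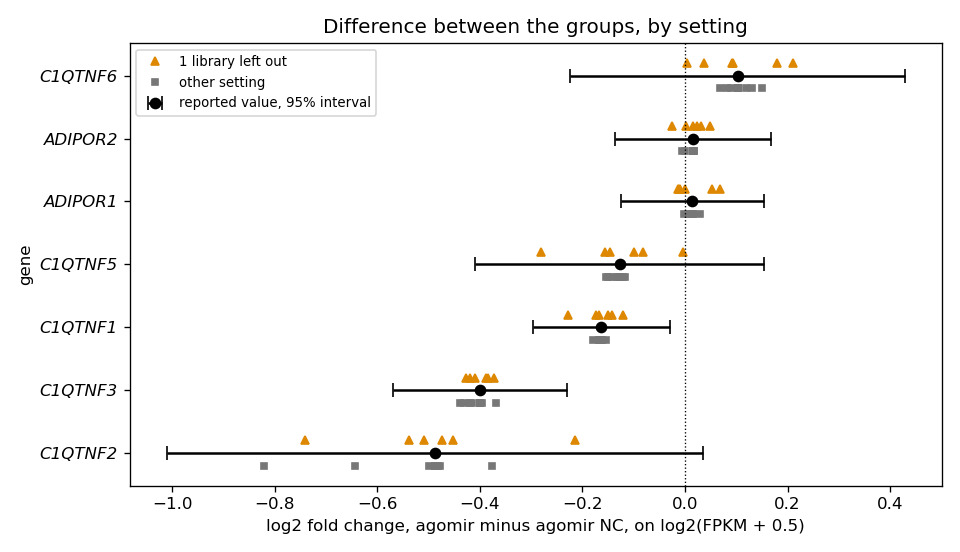
Log2 fold change of agomir against agomir NC on the log2(FPKM + 0.5) scale (horizontal axis) for the 7 genes tested (vertical axis). Black points with bars give the value and its 95% interval, triangles the value with 1 library left out, and squares the value under other settings. The intervals of C1QTNF3 and C1QTNF1 lie below 0, and the triangles of C1QTNF2 spread from -0.74 to -0.21.

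The remaining C1q-domain genes were mostly silent. Of 24 such genes on the list, 4 reached a mean of 0.5 FPKM, and C1QTNF4, C1QTNF8, C1QTNF9 and C1QTNF12 were listed at 0 in all 6 libraries, as were the complement genes C1QA, C1QB and C1QC, which macrophages express. Of the 4 tested, 1 was higher and 0 were lower at an unadjusted p under 0.05, beside 6.63% higher and 4.31% lower of all genes tested. EMILIN2, an elastic fiber glycoprotein gene, was that gene, at 109, 110 and 114 FPKM under the agomir, while agomir NC gave 106, 101 and 103 FPKM. The groups were separate, the log2 fold change was 0.11 with limma's adjusted p at 0.387, and the unadjusted p stayed under 0.05 in 12 of 15 alternatives. It was 0.0807 without the variance trend, 0.0993 without agomir replicate 3 and 0.0633 without agomir NC replicate 2. CBLN3, a cerebellin gene, had the lowest log2 fold change of the list, -0.15, with overlapping groups, and its value was -0.22 without agomir NC replicate 1, where the unadjusted p in limma was 0.0192, and -0.069 without agomir NC replicate 2, where it was 0.363.

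Of 17 genes listed for adiponectin receptor signaling and adiponectin binding, together with separate ceramidase genes, all had a row and 15 were tested. At an unadjusted p under 0.05, 3 of the 15 were higher and 0 were lower, beside 6.63% higher and 4.31% lower of all genes tested. At an adjusted p under 0.05 the count was 0. APPL1, the receptor adaptor, had close means of 26.0 and 25.9 FPKM, as had CDH13, the T-cadherin that binds multimeric adiponectin, with 16.7 and 17.0 FPKM. STK11, the LKB1 kinase that activates AMP-activated kinase, was at 29.0, 30.1 and 28.9 FPKM under the agomir, while agomir NC gave 26.1, 23.2 and 23.1 FPKM. Every agomir library lay above every agomir NC library, with a log2 fold change of 0.28 (standard error 0.059) and limma's adjusted p at 0.218. PPARA, the fatty acid-sensing nuclear receptor, read 5.96, 5.14 and 6.23 FPKM under the agomir, while agomir NC gave 3.47, 3.80 and 3.23 FPKM. Its groups were also separate, and its log2 fold change was the highest of the list, 0.65, with limma's adjusted p at 0.114. ACER3, an alkaline ceramidase gene, had a log2 fold change of 0.24 with overlapping groups, and its unadjusted p in limma was above 0.05 without agomir replicate 1 (0.0829), agomir replicate 3 (0.0623), agomir NC replicate 2 (0.105) or agomir NC replicate 3 (0.0650). The lowest value was that of ACER2, a related ceramidase gene, at -0.056. Leaving out agomir NC replicate 1, 2 or 3 gave -0.018, -0.029 or -0.12, and leaving out agomir replicate 3 gave -0.036. PRKAA1, a catalytic subunit of AMP-activated kinase, was at 10.7 and 10.2 FPKM with overlapping groups, and PRKAA2, its paralog, was below 0.5 FPKM.

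The PAQR family, to which both adiponectin receptors belong, had 6 of 9 listed members tested. Over all genes tested, 10.9% had an unadjusted p under 0.05 in limma. PAQR6 was the one of the 6 with an unadjusted p under 0.05, 2.47 against 1.90 FPKM, with overlapping groups, a log2 fold change of 0.31 and limma's adjusted p at 0.454. Its unadjusted p was above 0.05 in 7 of 15 alternatives, among them no filter (0.0768), median-ratio scaling (0.0631) and the replicate block (0.0716). The others left out agomir replicate 1 (0.0969), agomir replicate 3 (0.171), agomir NC replicate 1 (0.124) or agomir NC replicate 3 (0.156). PAQR3 had the lowest log2 fold change of the list, -0.075, which was 0.029 without agomir NC replicate 2.

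The list for adiponectin assembly in the endoplasmic reticulum, which holds chaperones, oxidases and the hydroxylases of the collagen-like stretch, had 8 of 8 genes tested. PLOD2, a lysyl hydroxylase gene, was at 57.0 ± 2.60 against 51.5 ± 1.18 FPKM (SD, n = 3 each), and its log2 fold change was 0.14. PLOD3, another of these genes, was at 69.8 ± 1.98 against 74.6 ± 1.31 FPKM (SD, n = 3 each), and its log2 fold change was -0.096. Both passed an unadjusted p of 0.05 in limma, at adjusted p of 0.354 and 0.446, and PLOD2 did so in 14 of 15 alternatives but PLOD3 in 6. The p of PLOD2 was 0.0597 without agomir replicate 2. That of PLOD3 was above 0.05 without any 1 library other than agomir replicate 3, from 0.0582 without agomir NC replicate 2 to 0.136 without agomir replicate 2. It was also above 0.05 with quantile normalization (0.0765), without the variance trend (0.118), with array weights (0.0591) and with the replicate block (0.0699). ERP44, which retains adiponectin in the early secretory pathway, was at 62.8 and 63.9 FPKM with overlapping groups. GSTK1, which promotes adiponectin multimerization, had the highest log2 fold change of the list, 0.16, and its groups also overlapped. The value rested on single libraries, since it was 0.014 without agomir replicate 3, 0.065 without agomir NC replicate 2 and 0.26 without agomir replicate 1. In this list 0 to 2 genes were higher and 0 to 1 lower over the alternatives, with 2 higher under quantile normalization. In the reported fit 25.0% of the list passed an unadjusted p of 0.05, beside 10.9% of all genes tested.

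Of 9 genes of leptin receptor signaling, 8 were tested and 0 had an unadjusted p under 0.05 in limma. Their log2 fold changes ran from -0.12 for SOCS3, the feedback inhibitor, to 0.071 for SH2B1, an adaptor of JAK2, which was 0.047 without agomir NC replicate 1, 0.12 without agomir NC replicate 2 and 0.045 without agomir NC replicate 3. LEPR, the leptin receptor gene, was listed at 0 in all 6 libraries, whereas LEPROT, a membrane protein gene of the same list, was at 41.9 and 41.8 FPKM.

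Other adipokines ranged from abundant to undetected, with RETN (resistin) and SERPINA12 (vaspin) listed at 0 in all 6 libraries. Of 15 listed, 13 had a row and 9 were tested, with 2 lower and 0 higher at an unadjusted p under 0.05 and 0 at an adjusted p under 0.05. The lower count ranged from 1 to 3 over the alternatives. With quantile normalization, without agomir replicate 2 and without agomir NC replicate 2, 1 gene was higher, in no case NAMPT. ANGPTL4, an inhibitor of lipoprotein lipase, was at 4.76, 4.85 and 4.37 FPKM under the agomir, while agomir NC gave 5.57, 6.24 and 5.92 FPKM. The agomir libraries were all below, with a log2 fold change of -0.31 (standard error 0.081) and limma's adjusted p at 0.284. RARRES2, which encodes chemerin, had means of 18.9 ± 1.16 and 21.6 ± 1.42 FPKM (SD, n = 3 each), and agomir NC replicate 1, at 19.9 FPKM, lay within the agomir range. Its log2 fold change was -0.19 with limma's adjusted p at 0.376, and its unadjusted p was above 0.05 without agomir replicate 3 (0.0820), agomir NC replicate 2 (0.0593) or agomir NC replicate 3 (0.0699). NAMPT, the visfatin gene, had the highest log2 fold change, 0.11, with an adjusted p of 0.626 in limma, and it was 0.045 without agomir NC replicate 2. METRNL, also of this list, had separate groups with the agomir above, a log2 fold change of 0.099 and limma's unadjusted p at 0.0678. FSTL1, a secreted glycoprotein gene, was the most abundant of the list, at 454 and 449 FPKM. Over the 50 tested genes of all these lists the median log2 fold change was -0.0064, with 3 lower and 6 higher at an unadjusted p under 0.05, that is 18.0%, beside 10.9% of all genes tested (4.31% lower and 6.63% higher), and single lists held between 0% and 25.0%.

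Of the markers of cell state, 0 passed an adjusted p of 0.05 in limma. The summed FPKM of the 16 mature adipocyte markers was 108, 107 and 113 with the agomir and 111, 125 and 118 with agomir NC, with the groups overlapping and SCD as most of it. SCD, a fatty acid desaturase gene, had a log2 fold change of -0.14 with limma's adjusted p at 0.422, and PPARG, the main transcription factor gene of fat cell formation, one of 0.23 with limma's adjusted p at 0.407. FABP4, a fatty acid-binding protein gene of maturing fat cells, was at 1.82, 2.33 and 1.54 FPKM under the agomir, while agomir NC gave 3.57, 2.21 and 2.88 FPKM. Its groups overlapped, and its log2 fold change, -0.49, was opposite in sign to that of PPARG, with limma's adjusted p at 0.363. SCD, PPARG and FABP4 were the 3 of 10 tested genes of this list with an unadjusted p under 0.05 in limma, beside 10.9% of all genes. CEBPA, PLIN1, CIDEA and LPL had log2 fold changes of 0.29, 0.14, 0.12 and 0.058. Those of PNPLA2, GPD1 and LIPE were -0.069, -0.072 and -0.0049. The groups of PPARG and CIDEA were separate with the agomir above, and those of the other tested genes of the list overlapped. The sum of the 13 preadipocyte and fibroblast markers was 28743, 29893 and 28833 FPKM with the agomir and 28737, 30049 and 29464 FPKM with agomir NC. Of the 12 genes tested in the latter list, 2 had an unadjusted p under 0.05 in limma, both with a lower mean under the agomir. NT5E, a surface enzyme gene of stromal cells, was at 73.2 ± 3.73 against 87.2 ± 3.56 FPKM (SD, n = 3 each), and its log2 fold change was -0.25 with limma's adjusted p at 0.209. DCN, the proteoglycan decorin, was at 2863 and 3114 FPKM, with separate groups and limma's adjusted p at 0.376. ENG, another marker of this list, was also lower with separate groups, at 54.0 ± 0.252 and 57.0 ± 1.05 FPKM (SD, n = 3 each). PDGFRA, THY1, COL3A1, LUM and VIM had lower means under the agomir too, with overlapping groups. ZNF423, a transcription factor gene of preadipocytes, went the other way with separate groups, at 5.98 ± 0.305 and 5.33 ± 0.217 FPKM (SD, n = 3 each). Limma's unadjusted p was 0.0829 for ENG and 0.0785 for ZNF423. COL1A1, COL1A2 and PDGFRB also had higher means under the agomir, with overlapping groups. Single marker genes were not refitted under the alternatives. The part of cell state in the differences of C1QTNF3 and C1QTNF1 was not tested, and in bulk RNA fewer cells of a type and less RNA per cell cannot be told apart.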

How the data were processed

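RNA sequencing libraries of 3 agomir and 3 agomir NC samples were compared. The table that the authors deposited holds FPKM for every gene in each library. The submitters' processing notes name fastp, HISAT2 and StringTie and the genome build ARS-UCD1.2, without versions or settings. Ratios of 2158 low genes between libraries did not share the steps that whole reads give, with at most 9 genes in a bin of 0.002 log2 units, so depth was not recovered. From the deposited FPKM, genes with a mean of at least 0.5 were taken as log2(FPKM + 0.5) and compared in limma 3.58.1 (R 4.3.3) by a two-sided moderated test with a variance trend and no replicate block, with Benjamini-Hochberg adjustment over 12422 genes. Exact permutation tests used all 20 labelings. The model was tested on simulated data. No 2 libraries held identical values.

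The members and the lists of related and marker genes were chosen with earlier results of these data known. Named genes were the members and, per list, those with an unadjusted p under 0.05 and those with the highest and lowest log2 fold change, plus the 5 genes nearest to C1QTNF2. Other genes were named after their values were seen. Neighboring genes were read from RefSeq (assembly ARS-UCD2.0), and 10 of 10 members matched it by symbol. Its coordinates are not given because the build differs. Primer sequences came from the study's supplement. Alternatives are given in the closing section. The sequence of bta-miR-484 and transcript sequences were not used here.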

Additional observations from a re-analysis of the deposited data

How the results depend on the processing

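Alternative fits left out 1 library at a time, changed the pseudocount to 0.1 or 1, dropped the filter or raised it to 1 FPKM, scaled by median ratios or by quantiles, dropped the variance trend, weighted the libraries, or added a replicate block. Members were also given as the log2 ratio of mean FPKM without a pseudocount. Of 112 values of the 7 tested members, 99 kept their direction and, except for the ratio of means, which has no test, their side of an unadjusted p of 0.05. The count of members under that p, 2, was 1 without the variance trend and ranged from 1 to 4 with 1 library left out, where 4 arose without agomir NC replicate 1. C1QTNF3 was among them in every fit. The count of members past an adjusted p of 0.05 was 0 in all 15 alternative fits. Over all genes that count was 1 in the reported fit, 0 when the filter or the variance trend was dropped or a replicate block was added, and 0 to 2 with 1 library left out. Counts at an unadjusted p under 0.05 were then 1604, 1249 and 1260, and over all alternatives they ran from 1006 to 1604. The count of 1604 arose without the filter, where 18467 genes were tested rather than 12422, so it does not compare directly with the others.

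The sign of ADIPOR1 turned to -0.0018 with median-ratio scaling and ran from -0.014 to 0.069 with 1 library left out. That of ADIPOR2 turned to -0.0060 with quantile normalization and ran from -0.026 to 0.049. PAQR3 ran from -0.19 to 0.029. For these signs and for the counts with 1 setting changed, the cause was not tested. Of 240 values of 16 named list genes, 211 kept direction and side. Scaling moved the median of all genes from 0.013 to -0.0020 at most.

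Replicate numbers occur in both groups, but after group means were removed, libraries of the same number correlated at -0.051, 0.053 and 0.039. The reported fit has no block. With the replicate block, the count of members under an unadjusted p of 0.05 was 2, C1QTNF1 and C1QTNF3. Without a known depth, counting error could not be given for the low values of C1QTNF2, C1QTNF6, ADIPOQ, LEP and C1QTNF7.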
